A study of Homo sapiens with 4 samples.

Results

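The genes of arachidonate metabolism described here are 10 in number, made up of enzymes, an activating protein and a receptor, and were taken by name from a list and matched to the deposited counts by NCBI gene number. All 10 were among the 25702 genes listed, and 8 passed the filter on low counts that left 15394 genes to test. They are PLA2G4A, PTGS1, PTGS2, TBXAS1, TBXA2R, ALOX12, ALOX5, ALOX5AP, LTA4H and LTC4S. The question was which of these transcripts differ between K562 cells with and without the fusion RUNX1::ERG. K562 is an established human line from chronic myeloid leukemia with erythroid and megakaryocytic features. Cells of both groups were transiently transfected with the LeGO-iG2 plasmid, which also expresses green fluorescent protein, either empty or carrying the fusion. No further treatment is given in the labels. Each group had 2 libraries from biological replicates, made from poly(A) RNA, and the sources used here do not say whether transfected cells were sorted before the RNA was extracted. The fusion joins the DNA-binding domain of RUNX1, a Runt factor, to that of ERG, an ETS factor.

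Arachidonate is a fatty acid held in membrane phospholipids. Cytosolic phospholipase A2 (PLA2G4A) frees it, after which it can be oxidised along separate branches. Cyclooxygenases (PTGS1, constitutive in platelets, and PTGS2, usually inducible) make the prostaglandin endoperoxide, which thromboxane synthase (TBXAS1) turns into thromboxane A2, a platelet agonist sensed by the receptor TBXA2R. Aspirin acts on platelets through PTGS1. The platelet-type lipoxygenase ALOX12 makes another platelet product and is a known target of RUNX1 in platelets. In leukocytes, ALOX5 with its activating protein ALOX5AP makes leukotriene A4, which LTA4H converts to leukotriene B4 and LTC4S to leukotriene C4.

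Depth and composition of the libraries set the limits of what follows. The counts per library summed to between 59695387 and 82352144, and a count of 0 allows up to 3 counts, or between 0.0364 and 0.0503 CPM (counts scaled to a library of fixed total), for counting error only. Between 66.7% and 68.9% of the counts from 1 to 10 were even numbers, so a low count may stand for fewer fragments than it appears to. Normalized CPM below are counts scaled by edgeR's TMM factors, which adjust each library total for composition. For ERG, which the plasmid supplies, the count was 4 in both empty vector libraries, 80443 in RUNX1::ERG replicate 1 and 27218 in RUNX1::ERG replicate 2, a 2.52-fold gap in normalized CPM between the latter. RUNX1 was at 78.6 and 49.0 normalized CPM in empty vector libraries and at 786 and 400.2 with RUNX1::ERG. For the markers, rose and fell stand for a call by edgeR at an adjusted p under 0.05. Of all genes tested, 3.64% were called higher and 1.15% lower. All 12 erythroid markers used (globins, KLF1 and others) were tested, 2 rose and none fell, with a summed level of 11970 to 14230 normalized CPM. Of 14 megakaryocyte and platelet markers, 6 of the 8 tested rose and none fell, and their summed level went from 106 and 107 normalized CPM with the empty vector to 537 and 467 with RUNX1::ERG. The 8 tested include PF4, PPBP and VWF, which passed the filter on low counts through the group where they were higher. PF4 had 0 and 2 counts against 874 and 555, and PPBP 2 and 6 against 1553 and 1462. VWF had 1 and 8 against 311 and 277. GP1BB was at 0 in all 4 libraries, and GP9, TREML1 and CLEC1B had at most 2 counts. Of 10 monocyte and granulocyte markers, 2 of the 6 tested rose and none fell, with sums of 9.35 and 10.8 against 23.7 and 21.3 normalized CPM. LYZ, at 420 and 698 counts against 1523 and 1345, made up most of these sums. The others were mixed. On the log2 scale CD14, VCAN, S100A9 and S100A8 stood at 3.24, 1.17, 0.45 and 0.41, and MPO at -0.86. FCGR3A, not tested, had 42 and 10 counts against 8 and 3, and ELANE 10 and 0 against 2 and 0. The 7 mast cell and basophil markers, among them CPA3 and TPSAB1 at 0, summed to at most 0.88. Of 6 lymphocyte markers, none of the 4 tested was called, with sums of 35.6 and 36.6 against 23.3 and 25.2. The part of these markers in the results below was not tested. Nor can a change in the share of cells that express a gene be told apart here from a change in RNA per cell.

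In the thromboxane branch PTGS1 rose by 9.57-fold and TBXAS1 by 3.67-fold with RUNX1::ERG. The receptor TBXA2R and the leukocyte lipoxygenase ALOX5 lay higher in both RUNX1::ERG libraries without passing the threshold, and ALOX12, LTA4H and PLA2G4A overlapped between the groups. PTGS2 and ALOX5AP were at or near 0. A gene was called when the adjusted p of edgeR's quasi-likelihood test was under 0.05. Of the 10 members, 2 were called higher and 0 lower, 6 were tested and not called, and 2 were not tested. At an unadjusted p under 0.05 the numbers were 4 higher and 0 lower, and the DESeq2 Wald test and limma voom each called 2 higher and 0 lower. Across all genes tested, 4.79% were called, 3.64% higher and 1.15% lower, while 18.0% had an unadjusted p under 0.05, 10.7% in the higher direction. DESeq2, which by its own filter adjusted p over 16429 genes, called 7.27% of them, 4.85% higher and 2.42% lower. For limma voom the shares were 4.47%, 3.48% and 0.994%. Both RUNX1::ERG libraries lay above both empty vector libraries for 5 of the 8 tested members and for 25.1% of all genes tested. The median log2 fold change was 0.82 over the 8 tested members and 0 over all genes tested. Both the count of 5 and this median include LTC4S, at 1.70, a member that passed the filter through the group where it was higher. The members and the other pathway genes below were chosen with earlier results of these data known. Their counts and medians beside those of all genes are therefore description only.

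**Figure D1:**
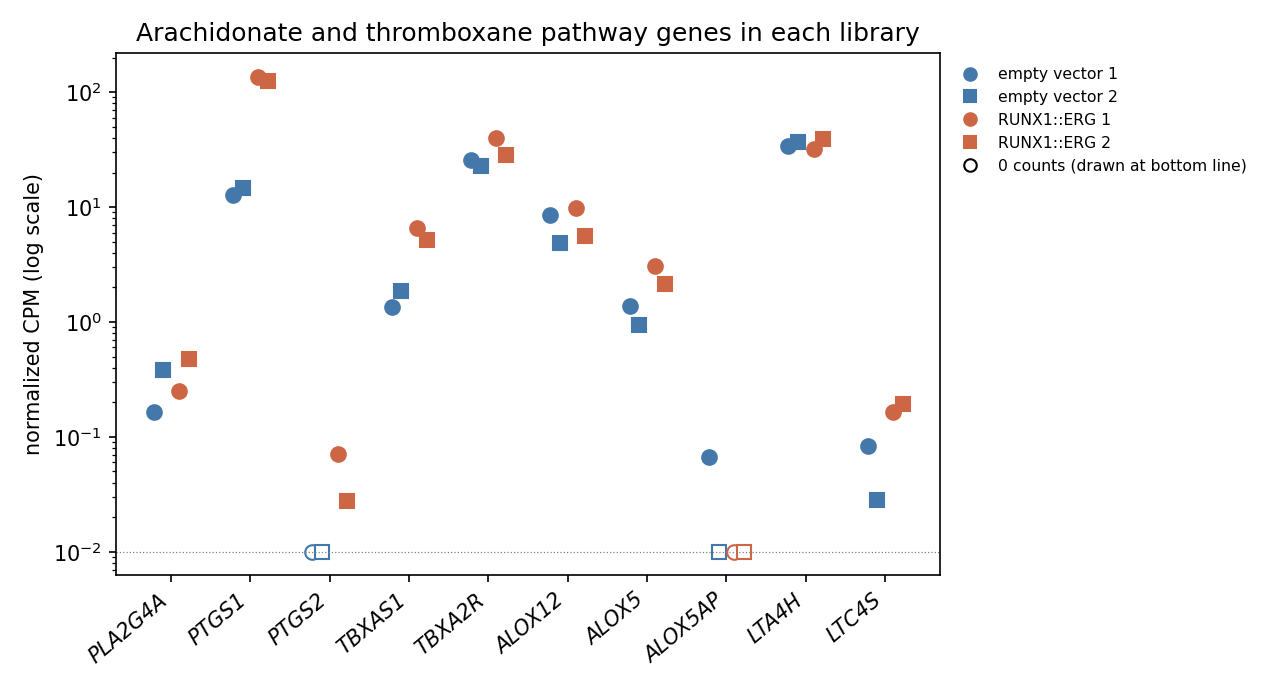
Normalized CPM (log scale) of each member in each library, with empty vector in blue and RUNX1::ERG in orange, replicate 1 as circles and replicate 2 as squares, and libraries with 0 counts as open symbols on the bottom line. PTGS1 and TBXAS1 show the widest gaps between the groups among members with over 1 normalized CPM, while the ALOX12 points split by replicate and not by group.

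PTGS1 (NCBI gene 5742, chromosome 9, 125132809 to 125157982 of GRCh37, plus strand) encodes cyclooxygenase 1, the first enzyme of prostaglandin and thromboxane synthesis. Its counts were 770 and 1031 with the empty vector (replicates 1 and 2, in this order throughout) and 11491 and 9070 with RUNX1::ERG. In normalized CPM these were 12.8 and 14.6 against 136 and 126, so that the lower RUNX1::ERG library was 8.63 times the higher empty vector library. The means were 13.7 ± 1.3 and 131 ± 7.16 (SD, n = 2), and the log2 fold change was 3.26 (standard error 0.18, 95% interval 2.87 to 3.65, edgeR adjusted p = 4.7e-06). The gap between the groups was far wider than that between replicates, and the 2 RUNX1::ERG libraries differed by 1.08-fold for PTGS1 while they differed by 2.52-fold for ERG. With any library left out, the log2 fold change of PTGS1 ran from 3.17 to 3.36 and stayed past the threshold.

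Because PTGS1 carried the widest change among the tested members, the bases around its start sites are shown. The RefSeq promoter table (GRCh38.p14) gives 2 windows for PTGS1, each of 300 bases that lie mostly before a start site, at chr9:122370283-122370582 and chr9:122375052-122375351, both on the plus strand. Capitals mark the ETS motif (CAGGAA or CCGGAA, either strand) and, in the first window, a GATA motif (AGATAA). The counts are per gene and do not separate the start sites.

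PTGS1, first window: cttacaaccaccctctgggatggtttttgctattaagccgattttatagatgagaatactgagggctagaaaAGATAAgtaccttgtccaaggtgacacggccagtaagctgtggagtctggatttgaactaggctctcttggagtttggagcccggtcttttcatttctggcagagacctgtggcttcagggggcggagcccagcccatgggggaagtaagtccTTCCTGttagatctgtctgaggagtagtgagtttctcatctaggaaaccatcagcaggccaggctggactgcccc

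PTGS1, second window: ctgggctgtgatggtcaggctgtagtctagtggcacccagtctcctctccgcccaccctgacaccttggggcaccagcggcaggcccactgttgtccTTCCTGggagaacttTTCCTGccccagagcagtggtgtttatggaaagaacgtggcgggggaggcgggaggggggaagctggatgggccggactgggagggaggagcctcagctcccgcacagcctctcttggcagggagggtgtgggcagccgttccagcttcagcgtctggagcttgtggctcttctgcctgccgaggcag

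Read on the gene's strand, the ETS letters TTCCTG began at base -25 of the first window and at bases -153 and -138 of the second, and the GATA letters at base -178 of the first. The RUNX motif searched (TGTGGT or TGCGGT, either strand) was in neither. Over the 10 windows of the 9 members in the table, 6 held the ETS motif, 1 the RUNX motif (that of LTC4S) and 2 the GATA motif. Of all 35116 windows of 300 bases in the table, 41.4%, 19.6% and 10.3% held these motifs. ALOX5 was not matched. None of the marked matches overlap each other, and a match is no more than a match of letters.

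PTGS2 (NCBI gene 5743, chromosome 1, 186640923 to 186650054, minus strand), the inducible cyclooxygenase, had 0 counts in both empty vector libraries, 6 in RUNX1::ERG replicate 1 and 2 in replicate 2. It was not tested. Nearly all cyclooxygenase counts were therefore those of PTGS1 in both groups. In the alternative without a filter on low counts, PTGS2 had an adjusted p of 0.52 from the same edgeR test.

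TBXAS1 (NCBI gene 6916, chromosome 7, 139476850 to 139720125, plus strand) encodes thromboxane synthase, which acts directly after the cyclooxygenases. It had 82 and 130 counts with the empty vector and 554 and 374 counts with RUNX1::ERG. The normalized CPM were 1.36 and 1.84 against 6.57 and 5.20, with no overlap and with the lower RUNX1::ERG library at 2.82 times the higher empty vector library. The means were 1.6 ± 0.34 and 5.89 ± 0.97 (SD, n = 2), and the log2 fold change was 1.87 (standard error 0.31, 95% interval 1.18 to 2.56, edgeR adjusted p = 0.0074). The call depended on RUNX1::ERG replicate 1, since without that library the log2 fold change was 1.70 and the adjusted p 0.056. The promoter window of TBXAS1 held none of the 3 motifs.

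The rises of both enzymes were unequal. Per kilobase of exon, PTGS1 was 10.03 and 8.47 times TBXAS1 in empty vector replicates 1 and 2, and 22.1 and 25.9 times TBXAS1 in RUNX1::ERG replicates 1 and 2. The ratios of the groups did not overlap. Their size depends on the exon length given to TBXAS1, and the order of the libraries does not.

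TBXA2R (NCBI gene 6915, chromosome 19, 3594505 to 3606873, minus strand) encodes the thromboxane receptor, which couples to G proteins on platelets and other cells. It had 1555 and 1619 counts with the empty vector and 3339 and 2033 with RUNX1::ERG. In normalized CPM the libraries were at 25.8 and 23.0 against 39.6 and 28.3, which do not overlap, although the lower RUNX1::ERG library was 1.1 times the higher empty vector library and the RUNX1::ERG libraries differed by 1.4-fold. The log2 fold change was 0.48 (standard error 0.21, 95% interval 0.02 to 0.93) and was not called (edgeR adjusted p = 0.25). A difference of up to 0.93 on the log2 scale is within this interval. Without RUNX1::ERG replicate 1 the value was 0.21, and without RUNX1::ERG replicate 2 it was 0.69.

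PLA2G4A (NCBI gene 5321, chromosome 1, 186798081 to 186958113, plus strand), which releases arachidonate from membranes, was low in every library. It had 10 and 27 counts with the empty vector and 21 and 34 with RUNX1::ERG, or 0.166 and 0.383 against 0.249 and 0.473 normalized CPM. The groups overlapped, and the log2 fold change was 0.37 (95% interval -1.07 to 1.81, edgeR adjusted p = 0.84). It was -0.09 without empty vector replicate 1, 1.1 without empty vector replicate 2, 0.77 when RUNX1::ERG replicate 1 was dropped and -0.17 when RUNX1::ERG replicate 2 was. Replicate 2 was the higher library in each group, and with a replicate block the value was 0.42. At this depth, changes of over 2-fold in either direction lie within the interval.

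**Figure D2:**
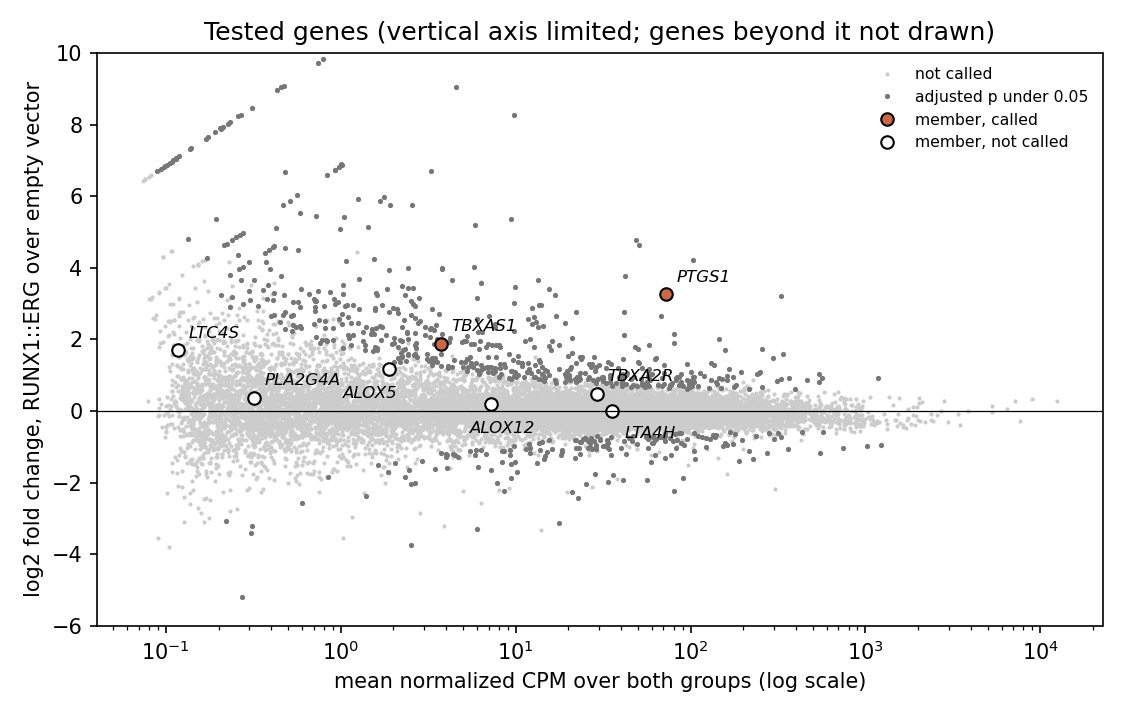
Log2 fold change (RUNX1::ERG over empty vector) against the mean normalized CPM over both groups (log scale) for the tested genes, with called genes in dark grey, called members in orange and members not called in white. PTGS1 (3.26) and TBXAS1 (1.87) lie among the called genes, and LTA4H and ALOX12 lie near 0.

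ALOX12 (NCBI gene 239, chromosome 17, 6899368 to 6914073, plus strand) is the platelet-type lipoxygenase. It had 516 and 345 counts with the empty vector and 830 and 401 with RUNX1::ERG. The normalized CPM were 8.57 and 4.89 against 9.84 and 5.58, so the groups overlapped, and the replicate 1 library was the higher one in each group, by 1.75-fold with the empty vector and 1.76-fold with RUNX1::ERG. The means were 6.73 ± 2.6 and 7.71 ± 3.02 (SD, n = 2). The log2 fold change of 0.2 (standard error 0.34, 95% interval -0.55 to 0.95, edgeR adjusted p = 0.83) was smaller than the spread between replicates. Its sign turned with the library left out: the value was -0.15 when empty vector replicate 2 was dropped and -0.27 when RUNX1::ERG replicate 1 was. Dropping 1 library leaves the replicate numbers uneven between the groups. Within each number the RUNX1::ERG library was the higher one, and with a replicate block the value was 0.19. The interval excludes a rise of the size seen for TBXAS1 or PTGS1.

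The counts of ALOX12 carry a limit of annotation. On the opposite strand lies ALOX12-AS1, whose exons cover 18.5% of the exonic bases of ALOX12, and the strand setting of the counting is not given in the sources used here, so reads of this pair may not be separated. ALOX12-AS1 had 139 and 122 counts with the empty vector and 305 and 163 with RUNX1::ERG, with a log2 fold change of 0.55 (edgeR adjusted p = 0.48). ALOX12 had 3.71 and 2.83 times the counts of ALOX12-AS1 with the empty vector, and 2.72 and 2.46 times with RUNX1::ERG. The pseudogene ALOX12P2 had 17 to 48 counts per library, overlapping between groups.

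Since ALOX12 is the member known as a RUNX1 target in platelets, its promoter window (RefSeq, GRCh38.p14, chr17:6995799-6996098, plus strand) is shown with the ETS motif in capitals. The letters CAGGAA began at base -231, and neither the RUNX nor the GATA motif was found in these 300 bases.

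ALOX12: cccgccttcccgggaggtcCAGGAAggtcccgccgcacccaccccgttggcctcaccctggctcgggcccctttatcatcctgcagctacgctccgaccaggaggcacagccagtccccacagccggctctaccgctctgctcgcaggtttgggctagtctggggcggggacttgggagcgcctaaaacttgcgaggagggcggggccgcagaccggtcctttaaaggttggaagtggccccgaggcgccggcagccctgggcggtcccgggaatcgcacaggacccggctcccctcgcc

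ALOX5 (NCBI gene 240, chromosome 10, 45869624 to 45941567, plus strand), which starts leukotriene synthesis in leukocytes, had 83 and 67 counts with the empty vector and 257 and 155 with RUNX1::ERG. The normalized CPM were 1.38 and 0.95 against 3.05 and 2.16, with the lower RUNX1::ERG library at 1.56 times the higher empty vector library. The means were 1.16 ± 0.3 and 2.6 ± 0.63 (SD, n = 2), and the log2 fold change was 1.16 (standard error 0.37, 95% interval 0.34 to 1.99), which missed the threshold (edgeR adjusted p = 0.115). It was called by edgeR without the filter on low counts (1.15, adjusted p = 0.03) and with a replicate block (1.16, adjusted p = 0.03). Leaving out empty vector replicate 1 gave a log2 fold change of 1.45. Without RUNX1::ERG replicate 1 it was 0.89 (adjusted p = 0.59).

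ALOX5AP (NCBI gene 241, chromosome 13, 31287615 to 31338563, plus strand), the membrane protein that presents arachidonate to ALOX5, had 4 counts in empty vector replicate 1 and 0 in the other 3 libraries. It was not tested. Thus ALOX5 transcripts were measured in libraries in which those of its activating protein were at or near 0.

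LTA4H (NCBI gene 4048, chromosome 12, 96394531 to 96437298, minus strand), the hydrolase that makes leukotriene B4 and is widely expressed, had between 2062 and 2838 counts per library. It was at 34.2 and 36.7 normalized CPM in empty vector libraries and at 31.7 and 39.5 with RUNX1::ERG. The RUNX1::ERG libraries lay on either side of both empty vector libraries. The log2 fold change was 0.01 (95% interval -0.4 to 0.41, edgeR adjusted p = 0.99), and its sign, this close to 0, turned with the scaling: it was -0.01 with DESeq2 size factors. Antisense noncoding genes of GENCODE v44 that have no symbol cover 10.9% and 1.63% of its exonic bases.

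LTC4S (NCBI gene 4056, chromosome 5, 179220981 to 179223648, plus strand), the synthase of leukotriene C4, had 5 and 2 counts with the empty vector and 14 in each RUNX1::ERG library. The normalized CPM were 0.083 and 0.028 against 0.166 and 0.195 and did not overlap. The log2 fold change of 1.7 had a 95% interval from -0.22 to 3.62, and edgeR's adjusted p was 0.35. It was 2.6 without empty vector replicate 1 and 1.1 without empty vector replicate 2. These few counts do not separate no difference from a large one.

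**Figure D3:**
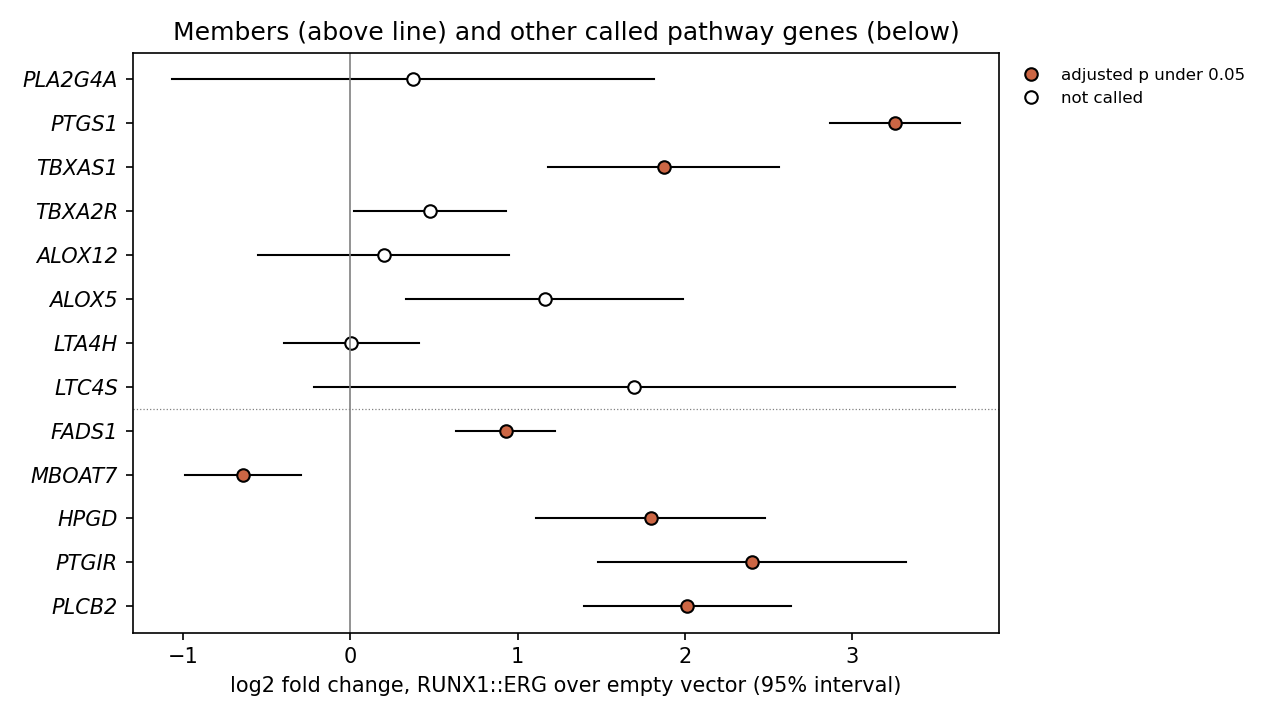
Log2 fold change (RUNX1::ERG over empty vector) with its 95% interval for the 8 tested members, above the dotted line, and for the 5 other pathway genes called, below it; filled symbols mark an adjusted p under 0.05. The interval of PTGS1 (2.87 to 3.65) lies above those of the other members except LTC4S, whose interval (-0.22 to 3.62) is wide.

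Levels of different genes were compared per kilobase of merged exon of GENCODE v44 on GRCh37, which may differ from the annotation that was counted. With the empty vector the order was TBXA2R at 8.63 ± 0.72 (SD, n = 2) CPM per kilobase, then LTA4H at 4.79 ± 0.24, ALOX12 at 2.54 ± 0.98 and PTGS1 at 2.37 ± 0.22. ALOX5 at 0.312 ± 0.081, TBXAS1 at 0.259 ± 0.055, PLA2G4A at 0.095 ± 0.053 and LTC4S at 0.047 ± 0.032 followed. The neighbours ALOX12 and PTGS1 overlapped between libraries, as did ALOX5 and TBXAS1, and PLA2G4A and LTC4S. With RUNX1::ERG, PTGS1 came first at 22.7 ± 1.24, above TBXA2R at 12.01 ± 2.83, LTA4H at 4.81 ± 0.74, ALOX12 at 2.91 ± 1.14, TBXAS1 at 0.953 ± 0.157 and ALOX5 at 0.698 ± 0.169. Among all genes tested, the level of PTGS1 per kilobase went from percentile 40 to percentile 85.1, and that of TBXAS1 from 17.8 to 27.7. The level of TBXAS1 with RUNX1::ERG is 2.69 when divided by the length of its longest transcript, beside 3.22 for ALOX12, and these neighbours then overlap between libraries. By that length the empty vector order of ALOX5 and TBXAS1 turns, with means of 0.462 and 0.733.

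Of the 8 tested members, 5 were higher in RUNX1::ERG replicate 1, the library with more ERG counts, and 3 were higher in replicate 2, while 50.4% of all tested genes were higher in replicate 1. PTGS1, TBXAS1, TBXA2R, ALOX12 and ALOX5 made up the 5, at 1.08, 1.26, 1.4, 1.76 and 1.41 times their level in replicate 2. With 2 libraries, no relation with the amount of ERG can be tested.

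The genes whose pattern lay nearest to that of PTGS1, by the distance of centred log2 normalized CPM over the 4 libraries among 15219 genes with counts in every library, were MLC1 (distance 0.16), CACNA1E (0.19) and FOLR1 (0.23). Their log2 fold changes were 3.41, 3.24 and 3.24, against 3.26 for PTGS1. They lie at other levels, with means of 28.2, 0.374 and 4.22 normalized CPM with RUNX1::ERG. CACNA1E had 2 and 3 counts with the empty vector and passed the filter through the RUNX1::ERG group. Its distance and fold change therefore rest on few counts. Over 4 libraries in 2 groups, such a likeness describes these libraries only.

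Beyond the members, 84 other genes of the pathway were taken from a list that covers the supply of arachidonate, its release, further synthases, breakdown, receptors and the signalling of the thromboxane receptor. Of these, 53 were tested, 4 rose (FADS1, HPGD, PTGIR and PLCB2), 1 fell (MBOAT7) and 48 were not called, beside the 3.64% of all tested genes called higher and 1.15% called lower. The median log2 fold change of the 53 was 0.13, against 0 for all genes tested. The remaining 31 reached no more than 23 counts in any library, and 12 of them had 0 in every library.

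In the supply of arachidonate, all 7 genes were tested, 1 rose and 1 fell, with 3 at an unadjusted p under 0.05 (18.0% of all genes tested). FADS1, the desaturase that makes arachidonate from its precursor, was at 859 and 758 normalized CPM in empty vector libraries and at 1570 and 1507 with RUNX1::ERG. No library overlapped, and the log2 fold change was 0.93 (standard error 0.13, edgeR adjusted p = 0.003). FADS2 and ELOVL5, the desaturase and elongase that act before it, stood at 0.35 (edgeR adjusted p = 0.28) and -0.14 (edgeR adjusted p = 0.71) on the log2 scale. MBOAT7, which places arachidonate into phosphatidylinositol, fell from 202 and 238 to 143 and 139 normalized CPM, or by -0.64 on the log2 scale (standard error 0.16, edgeR adjusted p = 0.043). That call was lost when empty vector replicate 2 (-0.52, edgeR adjusted p = 0.13), RUNX1::ERG replicate 1 (-0.66, 0.15) or RUNX1::ERG replicate 2 (-0.64, 0.14) was left out. Among 16 other genes of arachidonate release, 6 were tested and none was called by edgeR, DESeq2 or limma voom, nor was any at an unadjusted p under 0.05. PLA2G12A, a secreted phospholipase, had a log2 fold change of -0.26.

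**Figure D4:**
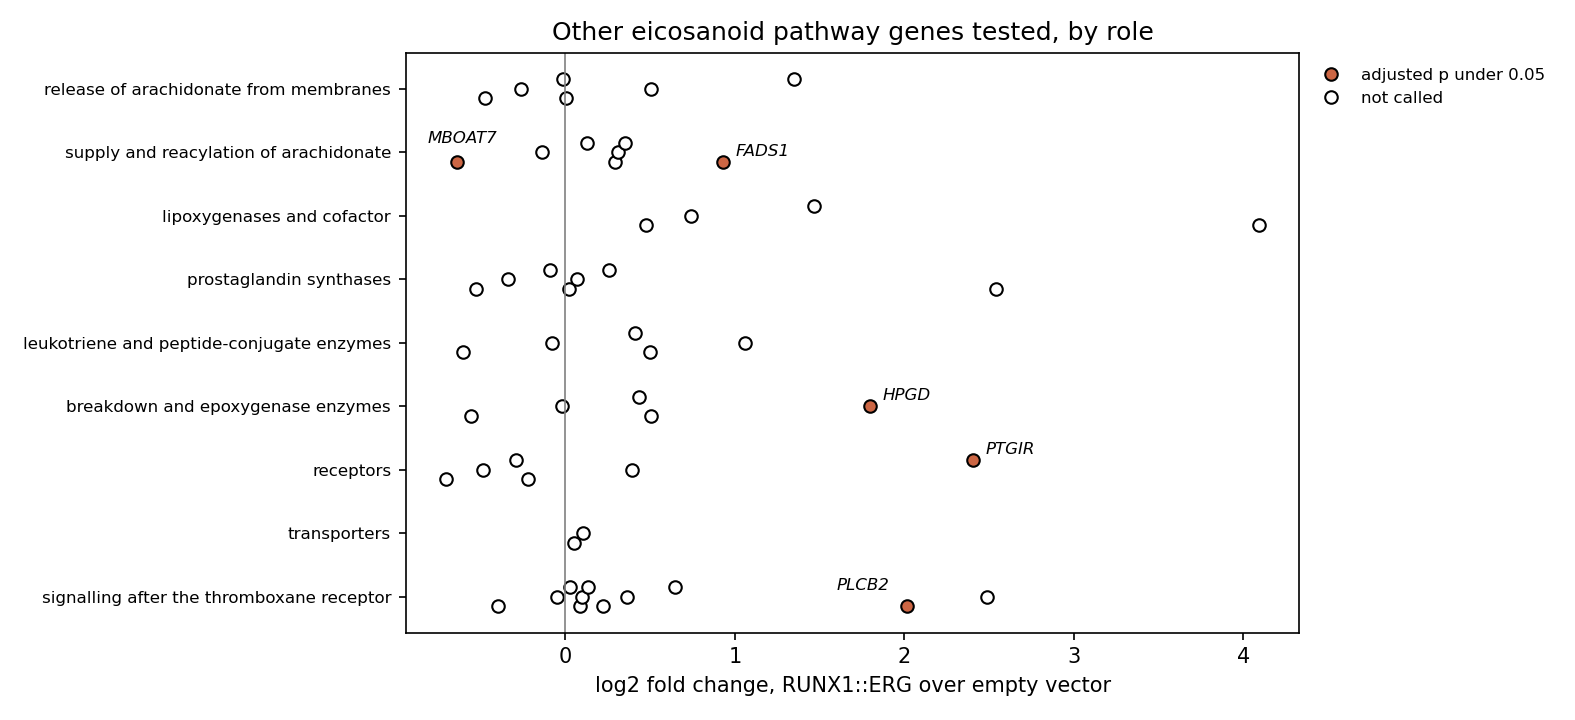
Log2 fold change (RUNX1::ERG over empty vector) of the 53 other pathway genes tested, in rows by role, with genes at an adjusted p under 0.05 filled and named. The called genes are spread over 4 of the 9 roles, and most points lie between -1 and 1.

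Of the 9 further prostaglandin synthases, 7 were tested and none was called by edgeR, DESeq2 or limma voom, with 1 at an unadjusted p under 0.05 (18.0% of all genes tested). That gene, HPGDS, had 4 and 4 counts with the empty vector and 22 and 34 with RUNX1::ERG. It passed the filter through the group where it was higher. PTGES3, the cytosolic synthase of prostaglandin E2, had a log2 fold change of -0.34. Of 4 tested genes among the other lipoxygenases and COTL1, a cofactor of ALOX5, none was called by these 3 tools, with 2 at an unadjusted p under 0.05 (18.0% of all genes tested), and COTL1 was at 0.48 (edgeR adjusted p = 0.14). The 2 are COTL1 and ALOX15, and ALOX15 passed the filter through the group where it was higher. Without the filter on low counts, edgeR called ALOX15 higher. Of 5 tested enzymes that act on leukotriene and glutathione conjugates, none was called by edgeR or limma voom, with 4 at an unadjusted p under 0.05 (18.0% of all genes tested). DESeq2 called MGST1 lower. MGST3, a microsomal glutathione transferase, was at 0.41.

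Of 5 tested enzymes of breakdown and epoxide chemistry, 4 had an unadjusted p under 0.05 (18.0% of all genes tested). HPGD, which inactivates prostaglandins, was the 1 gene of these called. It rose from 2.71 and 4.58 to 10.4 and 14.98 normalized CPM, with a log2 fold change of 1.80 (standard error 0.31, edgeR adjusted p = 0.0088). Both RUNX1::ERG libraries lay above both empty vector libraries, and the call held with any library left out. EPHX2, which hydrolyses epoxides of arachidonate, was at 0.5 (adjusted p = 0.14).

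Among 14 other eicosanoid receptors, 6 were tested, 1 rose and 2 had an unadjusted p under 0.05 (18.0% of all genes tested). PTGIR, the prostacyclin receptor, which inhibits platelets through cyclic AMP, was at 1.35 and 0.893 normalized CPM in empty vector libraries and at 8.10 and 3.70 with RUNX1::ERG. The groups did not overlap, and the log2 fold change was 2.40 (standard error 0.42, edgeR adjusted p = 0.009). Without RUNX1::ERG replicate 1 it was 1.73 and no longer called (adjusted p = 0.082). PTGER3, a receptor for prostaglandin E2, had a log2 fold change of -0.29, and the leukotriene B4 receptor LTB4R was at -0.49 (edgeR adjusted p = 0.41). PTGDR2 was at 8.27 and 8.11 against 5.62 and 4.44 normalized CPM. Its log2 fold change of -0.70 was not called (edgeR adjusted p = 0.16). Of the 6 tested receptors, 2 had positive and 4 negative log2 fold changes. The receptors for leukotriene C4 and its products, CYSLTR1 and CYSLTR2, had 0 counts in all 4 libraries.

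All 11 genes of signalling after the thromboxane receptor were tested, and 1 rose (3.64% of all genes tested). An unadjusted p under 0.05 was found for 5 of them (18.0% of all genes tested). The 5 include PLCB4, at 31 and 6 counts with the empty vector and 131 and 127 with RUNX1::ERG. It passed the filter only with the RUNX1::ERG libraries. PLCB2, a phospholipase C that acts downstream of Gq proteins, went from 5.15 and 4.38 to 24.2 and 14.2 normalized CPM, up by 2.02 on the log2 scale (standard error 0.28, edgeR adjusted p = 0.0025). No library overlapped, and the call held with any library left out. Its relatives PLCB3 and PLCB4 stood at 0.65 (edgeR adjusted p = 0.055) and 2.49 (edgeR adjusted p = 0.058). DESeq2 called both and limma voom called PLCB4. The G protein subunits GNAQ, GNA11, GNA12 and GNA13, through which the receptor signals, had log2 fold changes from 0.1 to 0.37, and none was called. ARHGEF12 was at -0.05. Of the transporters, ABCC4 and ABCC1 were tested at 0.1 and 0.05, and the prostaglandin carrier SLCO2A1 had 0 counts in all 4 libraries.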

How the data were processed

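Whole transcriptome sequencing of 4 K562 libraries was analysed. The authors deposited raw counts per gene, unnormalized, 1 file per library. The submitters' processing notes name HISAT2 2.2.1, featureCounts 2.0.1 and hg19. The annotation, strand setting and handling of read pairs are not given in the sources used here. Symbols came from a RefSeq gene table (GRCh38.p14), which matched 92.2% of gene numbers, and positions and exon lengths from GENCODE v44 on GRCh37.

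Counts were compared in R 4.3.3 with edgeR 4.0.16 (TMM scaling, filterByExpr, quasi-likelihood test, prior count 0.125, Benjamini-Hochberg adjustment over all genes tested, threshold 0.05), with all 4 libraries and no block. The standard error is the log2 fold change divided by the square root of F. Alternatives were DESeq2 1.42.0, limma 3.58.1 voom, other scalings and filters, halved counts, robust estimation, a prior count of 2, a replicate block and each library left out. With 2 libraries per group, an exact permutation test cannot reach the threshold. The procedure was tested on simulated data.

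The members and lists were chosen with earlier results of these data known. Named were the members, other pathway genes called and the one with the highest normalized CPM over both groups, not per length, in each role. So were ALOX12-AS1, the gene with counts that overlaps a member, and the 3 genes nearest to the member with the smallest p. MGST1, PLCB3, PLCB4, FADS2, ELOVL5, LTB4R, PTGDR2, CYSLTR1, CYSLTR2, SLCO2A1, ABCC4 and the G protein genes were named after their values were seen. The same holds for HPGDS, ALOX15 and the marker genes given with their own values. One marker gene of the erythroid list is not reported here and was left out of its count and sum.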

Additional observations from a re-analysis of the deposited data

How the results depend on the processing

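PTGS1 was called under each alternative, with log2 fold changes from 3.17 to 3.36 over the libraries left out. TBXAS1 was called under each alternative except without RUNX1::ERG replicate 1, with a range of 1.68 to 2.11. ALOX5 was called without a filter (1.15), with the replicate block (1.16) and without empty vector replicate 1, with a range of 0.89 to 1.45. TBXA2R (0.21 to 0.69) and LTC4S (1.1 to 2.6) kept their direction over the libraries left out and were not called. PLA2G4A (-0.17 to 1.1), ALOX12 (-0.27 to 0.66) and LTA4H (-0.17 to 0.15) changed sign, PLA2G4A at -0.09 without empty vector replicate 1. LTA4H was -0.0068 with DESeq2 size factors, -0.0062 without a filter, -0.0082 with the DESeq2 Wald test and -0.0065 with limma voom. Fits without one library leave 1 library in a group and assume that it varies like the other group.

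The number of genes called was 737, and 1500 without a filter, 1194 with DESeq2 and 354 to 1355 with a library left out, lowest without RUNX1::ERG replicate 1. The members called were 1 to 3, and the other pathway genes called were 5, 8 without a filter, 8 with DESeq2 and 3 to 7 with a library left out. The cause was not tested.

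With the replicate block, 1733 genes, 12 other pathway genes and 3 members (PTGS1, TBXAS1 and ALOX5) were called, with ALOX15, COTL1, MGST1, DPEP2, EPHX2, PLCB3 and PLCB4 added among the other pathway genes, and LTA4H was at -0.0020. Libraries with equal numbers deviated together from their group means (r = 0.37 across genes). As nothing in the labels ties a number to a common day or batch and there are only 2 numbers, they were not treated as pairs. Divided by the longest transcript, levels with RUNX1::ERG were 26.1 for PTGS1, 5.83 for LTA4H, 1.03 for ALOX5 and 0.199 for LTC4S.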

Other observations

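Some pathway genes near 0 with the empty vector had counts with RUNX1::ERG and were chosen here after their values were seen. ALOX15, a lipoxygenase of eosinophils and macrophages, had 2 and 0 counts with the empty vector and 37 and 10 with RUNX1::ERG (edgeR adjusted p = 0.075). HPGDS, the hematopoietic prostaglandin D synthase, was counted 4 times in both empty vector libraries and 22 and 34 times with RUNX1::ERG (adjusted p = 0.086). PTGER4, a receptor for prostaglandin E2, had 2 and 0 counts against 23 and 8 and was under the filter. None of the 3 was called in the fit reported here, and at these depths the sizes of the differences are poorly set.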
